A study of Mus musculus with 8 samples.

Results

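Chemokines are small secreted or membrane-tethered proteins that steer the movement of leukocytes and other cells through G protein-coupled receptors. They are grouped by the spacing of their first cysteines into CC, CXC, CX3C and XC ligands, and the receptors are named after the ligands they bind. Mammary epithelial and tumour cells secrete several of them, and myeloid cells and lymphocytes carry most of the receptors. The set described here holds every array probe, control spots left out, whose gene name begins with one of these ligand or receptor prefixes followed by a digit. It comprised 71 probes for 55 genes, of 39429 probes for 30458 genes or unnamed transcripts on the array.

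The cells were NMuMG-NT2197, a derivative of a mouse mammary epithelial line. All 8 samples carried a ShcA complementary DNA in the pMSCV/hygro vector. In 4 samples it encoded the R175Q form, in which glutamine replaces arginine at residue 175 of ShcA, and in the other 4 it encoded wild-type ShcA. ShcA is an adaptor protein that links receptor tyrosine kinases to downstream signalling, and arginine 175 lies in its phosphotyrosine-binding domain. The labels do not say whether the lines were clones or pools, whether the ShcA of the cells themselves was removed, or whether the 4 samples of a group came from separate cultures, so the p-values measure only the spread between these samples. The labels call the RNA microdissected although they describe cultured cells.

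Each sample was labelled with Cy3 and hybridized with a common Cy5 reference on an Agilent array, without dye swaps. Values are log2 ratios of Cy3 over Cy5, so a ratio of 1 is a signal that is 1 log2 above the reference on the same probe. The labels give the reference as mouse in one field and as human in another. Ratios of different genes were not compared as levels. In bulk samples, fewer cells of a type and less RNA per cell cannot be told apart.

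The 60-base probes of the 8 genes whose differences had the lowest adjusted p-values are printed here, because each array value is the signal of 1 such stretch. The coordinates follow the mm9 design of the files, and no annotation was used to place a probe in an exon or a UTR.
Ccl7 probe (chr11:81860656-81860715, plus strand): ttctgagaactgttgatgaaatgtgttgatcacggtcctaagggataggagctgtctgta
Ccr7 probe (chr11:99005551-99005610, minus strand): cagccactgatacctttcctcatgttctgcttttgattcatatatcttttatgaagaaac
Ccl5 probe (chr11:83339296-83339355, minus strand): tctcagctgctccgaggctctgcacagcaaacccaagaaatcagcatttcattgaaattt
Ccl8 probe (chr11:81930108-81930167, plus strand): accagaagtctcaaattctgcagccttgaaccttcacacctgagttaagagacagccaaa
Cxcl16 probe (chr11:70267780-70267839, minus strand): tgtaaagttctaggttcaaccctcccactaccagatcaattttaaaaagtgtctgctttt
Cxcr7 probe (chr1:92111803-92111862, plus strand): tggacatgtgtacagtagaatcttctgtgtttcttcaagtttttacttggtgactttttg
Ccl6 probe (chr11:83401997-83402056, minus strand): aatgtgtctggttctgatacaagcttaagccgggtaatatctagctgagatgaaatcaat
Cxcl10 probe (chr5:92775781-92775840, minus strand): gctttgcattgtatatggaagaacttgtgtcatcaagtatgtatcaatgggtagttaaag
Cxcl10 second probe (chr5:92776616-92776675, minus strand): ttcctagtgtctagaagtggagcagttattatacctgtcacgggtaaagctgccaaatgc
The probes used for the 27 genes that could be tested shared no run of more than 11 bases with a probe of another chemokine or receptor gene. That longest run was between the probes of Ccl27a and Ccr6. The probes were not compared with the rest of the genome or with repeated sequence.

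Of the 55 genes, 27 could be tested. A probe was counted as well above background by the scanner software's own flag in Cy3. In all, 24 genes had a probe above background on all 8 arrays, 17 had none on any array, and 11 had one on 1 to 3 arrays. The number of member probes above background was 39, 33, 37 and 32 of 71 in R175Q replicates 1 to 4, against 33, 33, 37 and 33 in wild-type replicates 1 to 4. These counts overlapped between the groups. Over all probes of the array the share above background was 52.9% to 62.5% per array. No spot was saturated.

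**Figure D1:**
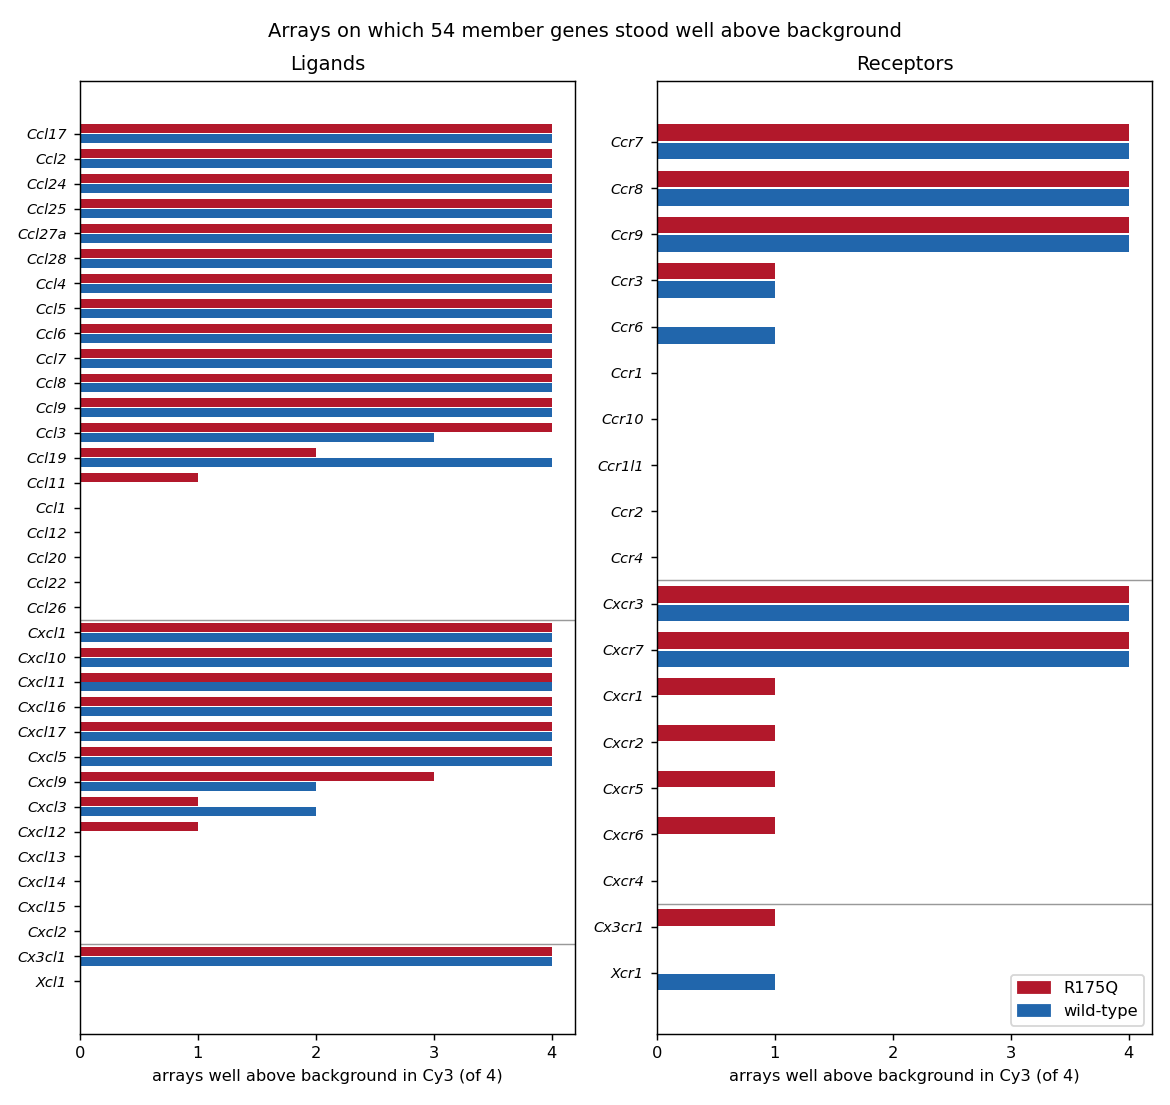
Number of arrays, of 4 in each group, on which the best-measured probe of 54 of the 55 genes stood well above background in Cy3. Red bars are R175Q and blue bars wild-type. Ligands are on the left (CC, then CXC, then CX3C and XC) and receptors on the right in the same order. Most CC ligands fill both bars, whereas Ccr7, Ccr8, Ccr9, Cxcr3 and Cxcr7 are the receptors that do.

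Detection differed between ligands and receptors. Of 20 CC ligand genes 14 passed the filter, which asked for 4 of 8 arrays above background, and of 13 CXC ligand genes 7 did. Cx3cl1 passed and Xcl1, the XC ligand, did not. Of 11 CC receptor genes 3 passed, of 7 CXC receptor genes 2 passed, and neither Cx3cr1 nor Xcr1 passed. The ligands on no array were Ccl1, Ccl12, Ccl20, Ccl22, Ccl26, Cxcl2, Cxcl13, Cxcl14, Cxcl15 and Xcl1. Receptors on no array included Ccr1, Ccr1l1, Ccr2, Ccr4, Ccr10 and Cxcr4. Ccl11 stood above background on 1 R175Q array and 0 wild-type arrays, and Cxcl3 on 1 R175Q array and 2 wild-type arrays. Each of the 2 Cxcl12 probes was above background on 1 array, one in an R175Q array and the other in a wild-type array. Among the receptors, Cxcr1, Cxcr2, Cxcr5, Cxcr6 and Cx3cr1 were above background on 1 R175Q array and 0 wild-type arrays. Ccr6 and Xcr1 were above background on 0 R175Q arrays and 1 wild-type array, and Ccr3 on 1 array of each group. A gene that is not above background has no measured level here, which does not show that it is not expressed.

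Of the 27 genes that passed the filter, 11 rose and 1 fell in R175Q cells at an adjusted p under 0.05 (limma, Benjamini-Hochberg over 17458 genes), and 15 did not pass. The 11 are 40.7% of the 27, where 9.66% of all genes tested rose. The 1 that fell is 3.7%, where 9.76% of all genes fell. In counts over all genes, 1687 rose and 1704 fell, against 1768 and 1186 when the arrays were centred on the median in place of loess. The median difference, R175Q minus wild-type, was 0.12 over the 27 genes and -0.01 over all genes. The 2 groups of 4 arrays did not overlap for 12 of the 27 genes (44.4%), where they did not overlap for 23.9% of all genes. The filter counted arrays of both groups, so a gene that is bright in 1 group only could pass through that group. Ccl3, Cxcl9 and Ccl19 were the 3 of the 27 that were not above background on all 8 arrays.

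The background correction is the choice on which these counts depend most. With limma's default fit of the background, 6 of the 27 genes rose and 0 fell, where 2.64% of all genes rose and 2.35% fell. At an unadjusted p under 0.05 that fit put 8 of the 27 genes higher and 2 lower, and 3210 of all 17458 genes passed in either direction. With the default fit and slide as a block together, 0 of the 27 genes passed, and 8 were higher and 1 lower at an unadjusted p under 0.05. That combination left few calls on the whole array, where 3 of 17458 genes rose and 3 fell, and 2180 had an unadjusted p under 0.05. The 6 that rose with the default fit alone were Ccl5, Ccl7, Ccl8, Cxcl10, Cxcl16 and Cxcr7. The other 6 genes passed with the background of the negative control spots and not with the default fit, and the value under that fit is given beside each.

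**Figure D2:**
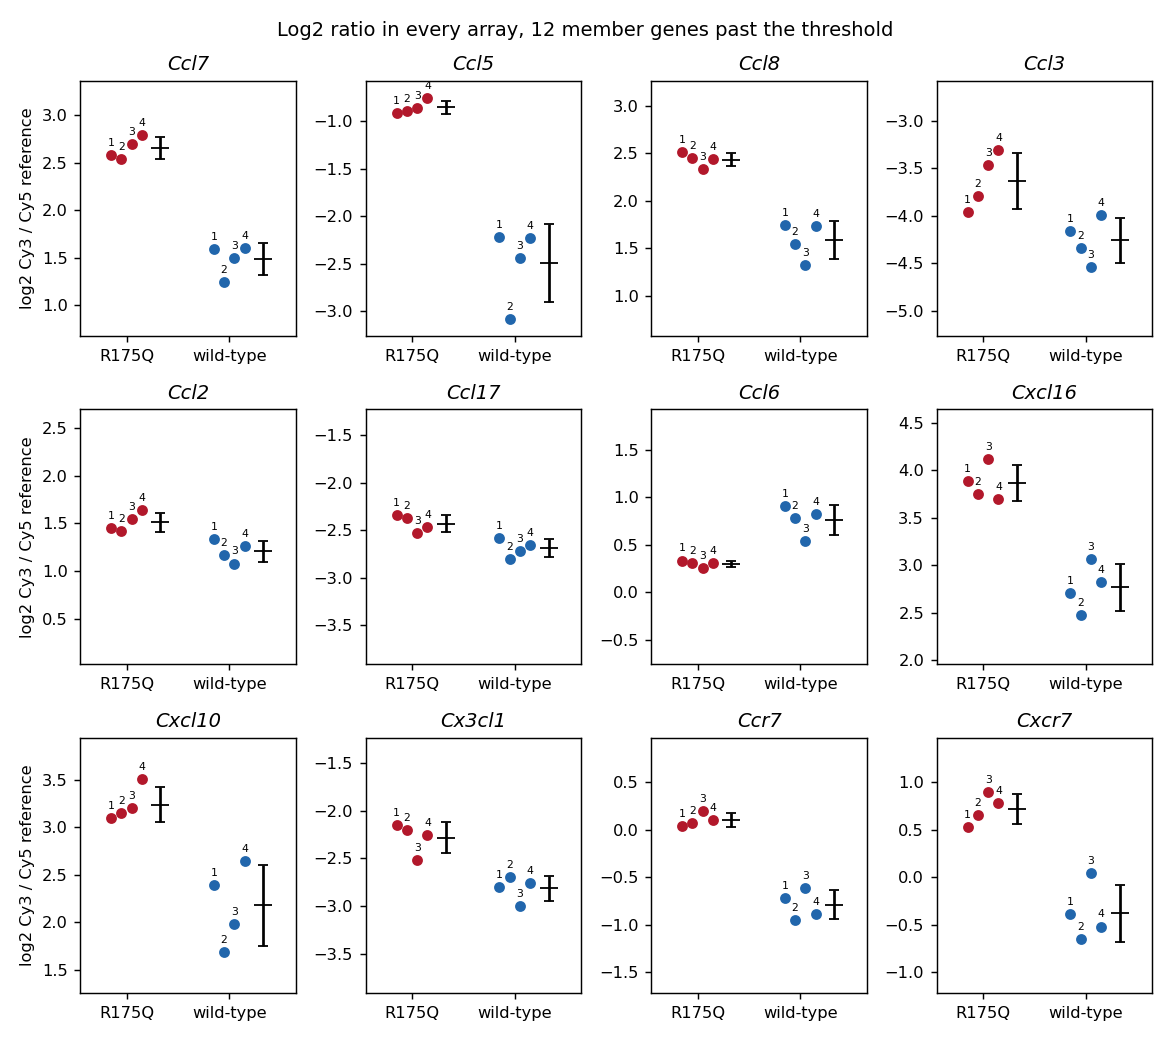
Log2 ratio of Cy3 over the Cy5 reference in every array for the 12 genes that passed the threshold. R175Q points are red and left, wild-type points blue and right, numbered by replicate. Black marks show the mean and SD (n = 4). All panels span the same range of log2 units. In each panel the groups do not overlap, and Ccl6 is the panel in which R175Q lies below.

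The CC ligands held 6 of the genes that rose and the 1 that fell. Ccl2, Ccl7 and Ccl8 are monocyte chemoattractant proteins, and Ccl2 and Ccl7 draw monocytes through Ccr2. For Ccl7, R175Q replicates 1 to 4 had log2 ratios of 2.58, 2.54, 2.70 and 2.79, against 1.60, 1.24, 1.50 and 1.60 in wild-type replicates 1 to 4. The lowest R175Q array lay above the highest wild-type array. Ccl7 rose by 1.17 ± 0.09 log2 (SE), a 2.25-fold difference (adjusted p = 2.3e-05), and on single slides the difference was 0.95 to 1.33.

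Ccl8 had log2 ratios of 2.51, 2.45, 2.33 and 2.44 in R175Q cells, against 1.75, 1.54, 1.33 and 1.74 in wild-type cells. The R175Q arrays lay close together and above all wild-type arrays. Ccl8 rose by 0.84 ± 0.09 log2 (adjusted p = 0.00021). In mice Ccl8 acts through Ccr8, which is described with the other receptors. Ccr8 was above background on all 8 arrays with the probe used and on 0 arrays with its other probe.

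Ccl2 had log2 ratios of 1.45, 1.42, 1.55 and 1.64 in R175Q cells, against 1.33, 1.17, 1.08 and 1.26 in wild-type cells. Here the groups were separate by a narrow gap between R175Q replicate 2 and wild-type replicate 1. The difference was 0.30 ± 0.07 log2 (adjusted p = 0.0174). The difference was nearly the same size but did not pass with the default background (0.30 log2, adjusted p = 0.0754) and with slide as a block (0.31 log2, adjusted p = 0.0523). It also did not pass with the Cy3 channel alone (0.18 log2, adjusted p = 0.165), nor with median centring (adjusted p = 0.106) or the deposited table (adjusted p = 0.112).

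Ccl5, also called RANTES, attracts T cells, monocytes and eosinophils, with Ccr1 and Ccr3 among its receptors. Its difference was the largest of the 27 genes with the negative control background. Its log2 ratios were -0.92, -0.90, -0.86 and -0.75 in R175Q cells, against -2.22, -3.09, -2.44 and -2.23 in wild-type cells. The R175Q arrays spanned little, whereas wild-type replicate 2 lay well below the other wild-type arrays. Ccl5 rose by 1.64 ± 0.17 log2, a 3.11-fold difference (adjusted p = 0.000123). Leaving out each array in turn gave 1.44 to 1.73.

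Ccl3, a macrophage inflammatory protein that binds Ccr1, was dim. It was above background on 4 R175Q arrays and 3 wild-type arrays. The log2 ratios were -3.96, -3.80, -3.47 and -3.31 in R175Q cells, against -4.16, -4.34, -4.54 and -3.99 in wild-type cells. The lowest R175Q array and the highest wild-type array nearly touched. The difference was 0.62 ± 0.15 log2 (adjusted p = 0.0188). It was -0.33 with the default background (adjusted p = 0.717), and adjusted p was 0.051 without wild-type replicate 2 and 0.055 without R175Q replicate 3.

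Ccl17, which attracts Ccr4-bearing T cells, was also dim, at 109 to 130 Cy3 units above local background in R175Q cells, against 60.2 to 85.2 in wild-type cells. Its log2 ratios were -2.34, -2.38, -2.54 and -2.47 in R175Q cells, against -2.58, -2.80, -2.72 and -2.66 in wild-type cells. The groups were separate, with R175Q replicate 3 and wild-type replicate 1 next to each other. The difference was 0.26 ± 0.07 log2 (adjusted p = 0.0246). It turned to -0.38 with the default background (adjusted p = 0.575). Adjusted p was 0.0663 with slide as a block, 0.0677 with scan day as a block, 0.0887 with scaling between arrays, 0.0908 with the deposited table, 0.075 without R175Q replicate 1, 0.0765 without R175Q replicate 2 and 0.0584 without wild-type replicate 2.

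Ccl6, a CC ligand of mice and rats that binds Ccr1, was the gene that fell. It was dim, at 140 to 192 Cy3 units above local background in R175Q cells, against 201 to 256 in wild-type cells. It had log2 ratios of 0.33, 0.31, 0.26 and 0.31 in R175Q cells, against 0.90, 0.78, 0.54 and 0.82 in wild-type cells. All R175Q arrays lay together below the lowest wild-type array, replicate 3. The difference was -0.46 ± 0.08 log2 (adjusted p = 0.00237), and it was -0.20 with the default background (adjusted p = 0.21).

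The other 7 CC ligands did not pass. Where given, their 95% confidence intervals show the room left for a difference with the negative control background alone. Ccl9 and Ccl4, whose genes neighbour those of Ccl6 and Ccl3, had differences of 0.03 (-0.19 to 0.25, adjusted p = 0.888) and 0.12 (-0.67 to 0.91, adjusted p = 0.864). The interval of Ccl4 is wide, and its log2 ratios had an SD of 0.54 in R175Q cells and 0.72 in wild-type cells (n = 4 each). Ccl24, an eotaxin, was at -0.18 (-0.32 to -0.04, adjusted p = 0.0829) and dim, at 70.9 to 84.9 Cy3 units above local background. With the default background it was at -0.81 (adjusted p = 0.487), outside that interval. Ccl28, a ligand made by mucosal and mammary epithelium, was at 0.11 (-0.05 to 0.26, adjusted p = 0.337). Ccl19, a ligand of Ccr7, was above background on 2 R175Q arrays and 4 wild-type arrays and had a difference of -0.20 (adjusted p = 0.238). Ccl25, the ligand of Ccr9, was measured by 3 probes with differences of -0.14, -0.23 and -0.14 (adjusted p = 0.198 for the probe used). Ccl27a, a ligand of Ccr10, was measured by 3 probes at 0.05, 0.08 and -0.16 (adjusted p = 0.831 for the probe used). The first of these overlapped the second by most of its length. Ccl19 and Ccl27a have close copies on chromosome 4 in the RefSeq table, among them Ccl27b and the Ccl19 pseudogenes, so their signals may be shared with those copies.

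Among the CXC ligands, Cxcl10 and Cxcl16 rose and the other 5 that passed the filter did not. Cxcl16 is a membrane-tethered ligand of Cxcr6 that is released by proteases and also serves as a scavenger receptor. Its log2 ratios were 3.89, 3.75, 4.12 and 3.70 in R175Q cells, against 2.71, 2.48, 3.07 and 2.82 in wild-type cells. Every R175Q array lay well above the highest wild-type array, replicate 3. Cxcl16 rose by 1.10 ± 0.13 log2, a 2.14-fold difference (adjusted p = 0.000284), and the difference on single slides was 0.88 to 1.34.

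Cxcl10, an interferon-induced ligand of Cxcr3 that attracts activated T cells and natural killer cells, was measured by both printed probes. With the probe used, the log2 ratios were 3.10, 3.15, 3.20 and 3.50 in R175Q cells, against 2.39, 1.69, 1.98 and 2.64 in wild-type cells. The groups were separate, and the wild-type arrays were spread over a wider range. Cxcl10 rose by 1.06 ± 0.19 log2 (adjusted p = 0.00311). The second probe gave 1.08 ± 0.08 log2 (adjusted p = 1.08e-05 with every probe fitted on its own).

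The other 2 interferon-induced ligands of Cxcr3 did not pass. Cxcl9 was near background, above it on 3 R175Q arrays and 2 wild-type arrays, and had a difference of 0.23 (0.01 to 0.45, adjusted p = 0.143). Its Cy5 reference was above background on 1 array. Cxcl11, a transcribed pseudogene in the RefSeq table, had signal above background on all 8 arrays, and its 2 probes gave differences of 0.00 (-0.35 to 0.35, adjusted p = 0.997) and -0.004. The probe used read 47009 to 60015 Cy3 units above local background, and the other read 567 to 873. Whether these probes read Cxcl11 alone was not tested.

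The ligands of Cxcr2, which attract neutrophils, were measured by Cxcl1 and Cxcl5. Cxcl5 had log2 ratios of 5.16 to 5.71 in R175Q cells, against 5.31 to 5.61 in wild-type cells. Both groups were thus far above the reference on this probe, and they overlapped, with a difference of 0.08 (-0.19 to 0.34, adjusted p = 0.731). Cxcl1 was at 3.02 to 3.69 in R175Q cells, against 2.67 to 3.29 in wild-type cells, a difference of 0.32 (-0.04 to 0.68, adjusted p = 0.214). Cxcl17, a mucosal CXC ligand, was at -0.25 (adjusted p = 0.261), with its Cy5 reference above background on 1 array. It turned to 0.20 with the default background (adjusted p = 0.555).

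Cx3cl1, or fractalkine, is a membrane-tethered ligand of Cx3cr1 made by epithelial and endothelial cells. Its log2 ratios were -2.14, -2.21, -2.52 and -2.26 in R175Q cells, against -2.80, -2.70, -3.00 and -2.76 in wild-type cells. The groups were separate, with replicate 3 the lowest array of each. Cx3cl1 rose by 0.53 ± 0.09 log2 (adjusted p = 0.00317), and the difference was 0.28 with the default background (adjusted p = 0.326).

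Of the receptors, Ccr7 and Cxcr7 rose. Ccr7 guides lymphocytes and dendritic cells towards Ccl19 and Ccl21. It was dim, at 146 to 194 Cy3 units above local background in R175Q cells, against 50.2 to 108 in wild-type cells. Its log2 ratios were 0.03, 0.07, 0.20 and 0.10 in R175Q cells, against -0.72, -0.95, -0.61 and -0.89 in wild-type cells. The groups were far apart relative to their spread. Ccr7 rose by 0.89 ± 0.08 log2 (adjusted p = 5.24e-05), and the difference was 0.36 with the default background (adjusted p = 0.0598).

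Cxcr7, now named Ackr3, is an atypical receptor that binds Cxcl12 and Cxcl11, recruits arrestin and removes its ligands without classical G protein signalling. Its log2 ratios were 0.53, 0.66, 0.90 and 0.78 in R175Q cells, against -0.38, -0.65, 0.04 and -0.52 in wild-type cells. Wild-type replicate 3 was the highest of its group and still below every R175Q array. Cxcr7 rose by 1.10 ± 0.14 log2, a 2.14-fold difference (adjusted p = 0.000474), and on single slides the difference was 1.04 to 1.30.

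The other 3 measurable receptors did not pass. Cxcr3, the receptor of Cxcl9 and Cxcl10, was dim, at 83.0 to 99.8 Cy3 units above local background in R175Q cells, against 105 to 132 in wild-type cells. Its log2 ratios were -0.20, -0.23, -0.33 and -0.50 in R175Q cells, against 0.03, -0.03, -0.22 and 0.04 in wild-type cells. Wild-type replicate 3 lay among the R175Q arrays, and the difference was -0.27 (-0.46 to -0.08, adjusted p = 0.053). It passed in 9 of 28 alternatives, with the same sign. Ccr8 and Ccr9, receptors of T cells, were dim and had differences of -0.05 (-0.36 to 0.25, adjusted p = 0.848) and -0.02 (-0.19 to 0.15, adjusted p = 0.894). With the default background they were at -0.48 (adjusted p = 0.489) and -0.57 (adjusted p = 0.4998), outside these intervals. The other Ccr8 probe was above background on 0 arrays in Cy3 and on 8 in Cy5. The other Ccr9 probe was above background on 0 arrays in either channel.

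**Figure D3:**
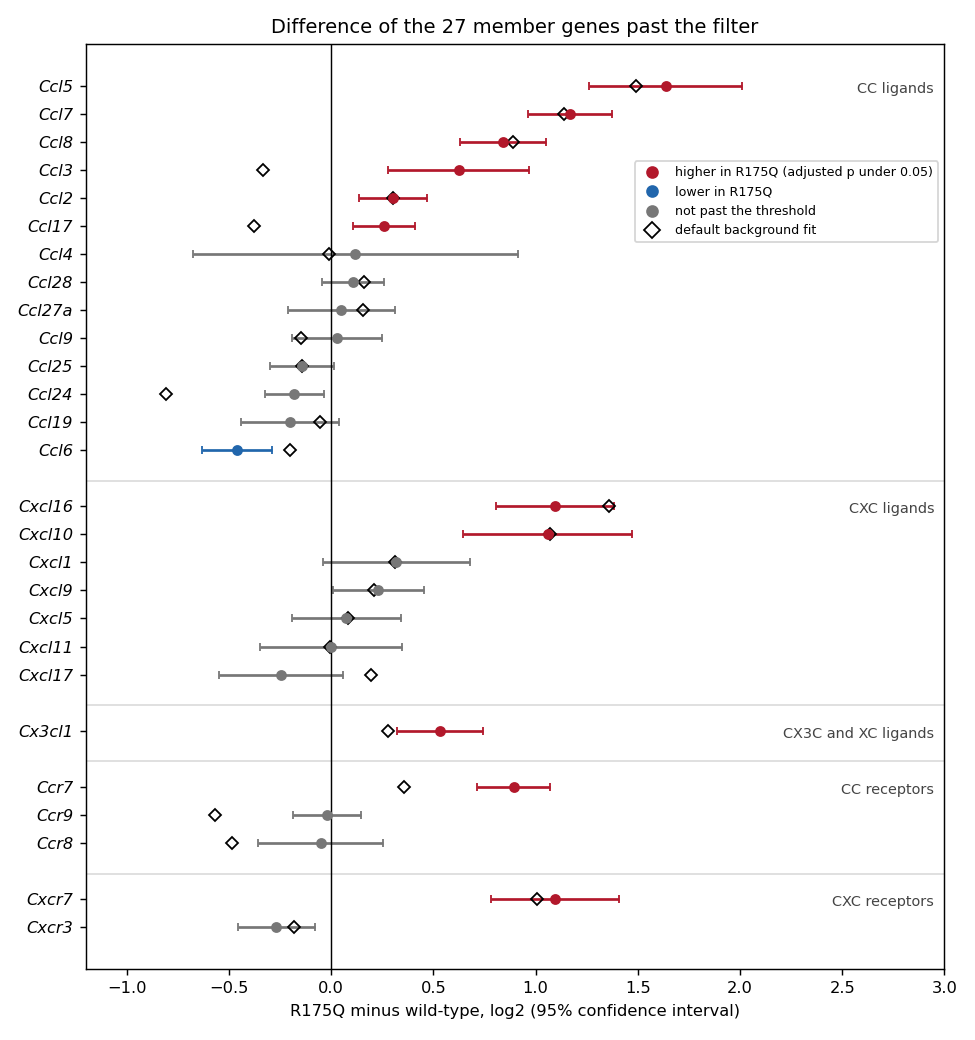
Difference in log2 ratio, R175Q minus wild-type, for the 27 genes past the filter, grouped by class. Filled circles are the estimates with 95% confidence intervals (limma, n = 4 each), red for genes that rose, blue for the gene that fell and grey for the rest. Open diamonds are the estimates with the default background fit. Among the genes that passed the threshold, the diamonds of Ccl3 and Ccl17 lie on the other side of 0 from their circles. Those of Ccl4, Ccl9, Cxcl11 and Cxcl17 do so among the grey genes. The diamonds of Ccl5, Ccl7, Ccl8, Cxcl10, Cxcl16 and Cxcr7 lie near 1 or above.

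Ligands that rose and the receptors named for them can be set side by side. The receptor of Ccl2 and Ccl7, Ccr2, and Ccr1, which binds Ccl3 and Ccl5, were not above background on any array. The same holds for Ccr4, the receptor of Ccl17. Ccr3, which also binds Ccl5, was above background on 1 array of each group. Cxcr6, the receptor of Cxcl16, and Cx3cr1, the receptor of Cx3cl1, were above background on 1 R175Q array each. Cxcr3, the receptor of Cxcl10, was above background on all 8 arrays but dim. Ccr8, the receptor of Ccl8, was also dim, above background on all 8 arrays with the probe used and on 0 with its other probe. Cxcl12, which binds Cxcr4 and Cxcr7, did not pass the filter in either group.

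Many chemokine genes lie next to each other, so the differences were also read by position. Neighbours within 300 kb were grouped, with positions in mm9. From chr11:81850650 to 81990227 lie Ccl2, Ccl7, Ccl11, Ccl12, Ccl8 and Ccl1. In this run 3 genes rose and 3 did not pass the filter. From chr11:83339296 to 83478111 lie Ccl5, Ccl9, Ccl6, Ccl3 and Ccl4, and here 2 genes rose, 1 fell and 2 did not pass the threshold. From chr5:92752796 to 92788626 lie Cxcl9, Cxcl10 and Cxcl11, of which Cxcl10 rose. From chr8:97274709 to 97335829 lie Ccl22, Cx3cl1 and Ccl17, of which Cx3cl1 and Ccl17 rose. None of the genes rose or fell in the run of Cxcl5, Cxcl3, Cxcl15, Cxcl1 and Cxcl2 on chromosome 5, nor in the run of receptor genes on chromosome 9 that begins with Ccr9, in which Ccr9 was the one that passed the filter. The estimates of neighbouring genes thus varied within the Ccl5 to Ccl4 and the Cxcl9 to Cxcl11 runs. The wide interval of Ccl4 (-0.67 to 0.91) took in the 0.62 of Ccl3, and Cxcl9 was near background. The 2 Cxcl11 probes read very unlike signals, and whether they read Cxcl11 alone was not tested. The differences between neighbours were not tested.

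**Figure D4:**
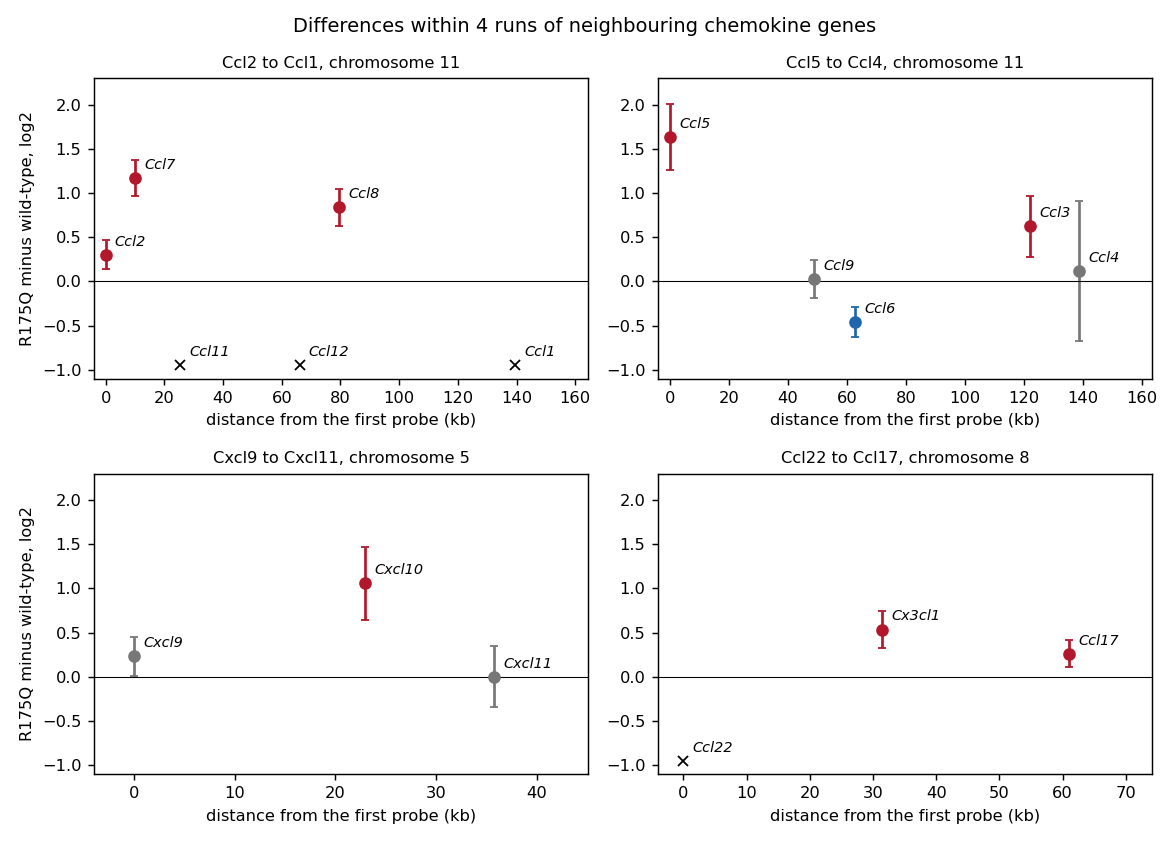
Difference in log2 ratio, R175Q minus wild-type, with its 95% confidence interval, against distance in kb from the first probe, in the 4 runs of 3 or more neighbouring genes in which a gene passed the threshold. Red marks genes that rose, blue the gene that fell, grey genes that did not pass, and crosses at the bottom genes that did not pass the filter. Ccl6 lies below 0 between Ccl5 and Ccl3, and Cxcl10 lies above Cxcl9 and Cxcl11.

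RefSeq promoters (GRCm38.p6, 250 bases before to 50 after a gene's start) were given for 40 of the 55 genes and 7 of the 12 that passed the threshold. They were searched on both strands for the NF-kB consensus, the interferon-stimulated response element core GAAANNGAA and the AP-1 site TGANTCA. NF-kB, interferon-activated factors and AP-1 are known inducers of chemokine genes. Of 44 promoters of the 40 genes, 11 held an NF-kB match (25.0%), 8 the response element core (18.2%) and 8 an AP-1 match (18.2%). Among 32851 promoters of all genes, the shares were 8.46%, 8.56% and 7.81%. Of the 6 promoters of genes that rose, those of Cxcl10 and Ccl3 held a match. The promoter of Cxcl10 held all 3 motifs and is printed with the matches in capitals, since it is the one that shows each of them.
Cxcl10 promoter (chr5:92348840-92349139, minus strand): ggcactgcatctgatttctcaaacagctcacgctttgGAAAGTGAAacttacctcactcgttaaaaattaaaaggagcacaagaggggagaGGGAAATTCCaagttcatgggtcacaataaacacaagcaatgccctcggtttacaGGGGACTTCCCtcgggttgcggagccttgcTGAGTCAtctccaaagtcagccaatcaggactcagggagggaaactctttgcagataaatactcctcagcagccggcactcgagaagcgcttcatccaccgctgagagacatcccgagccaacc
From the 5′ end the capitals are the response element core, first base at -213 from the start of the gene, an NF-kB match at -159, a run of overlapping NF-kB matches from -104 and from -103, and an AP-1 match at -74. No match of one motif overlapped a match of another. Ccl3 held the response element core at -39 on the opposite strand. The promoters of Ccl8, Ccl17, Ccl6, Cx3cl1 and Cxcr7 held none of these letters in this window. A match describes the letters and no binding was measured.

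Genes that work with the chemokine system were counted by list. Over all genes tested 9.66% rose and 9.76% fell, and with the default background 2.64% rose and 2.35% fell. Of 2 tested chemokine genes whose names begin otherwise, Pf4, a platelet chemokine, was at 0.38 ± 0.12 log2 (adjusted p = 0.0445), and at -0.29 with the default background. Of 7 tested proteases that release or process chemokines, 2 rose and the other 5 did not pass. Mmp2 rose by 1.82 ± 0.10 log2 (adjusted p = 2.81e-06) and Mmp3 by 0.98 ± 0.21 log2 (adjusted p = 0.00935). Mmp2 is known to cleave Ccl7 into a form that no longer activates its receptors. Of 9 tested genes for proteoglycans and heparan sulfate synthesis, which hold chemokines on cell surfaces, 2 rose and the other 7 did not pass. Gpc1, a glypican, rose by 0.80 ± 0.08 log2 (adjusted p = 8.2e-05) and Sdc3, a syndecan, by 0.34 ± 0.09 log2 (adjusted p = 0.0196). With the default background Mmp2 and Gpc1 passed, while Mmp3 (0.83 log2, adjusted p = 0.0634) and Sdc3 (0.31 log2, adjusted p = 0.205) did not.

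Of 15 tested genes of receptor signalling and desensitization, 1 rose and 2 fell, where 9.66% of all genes tested rose and 9.76% fell. Rgs1, which speeds the switching-off of G proteins, rose by 0.86 ± 0.21 log2 (adjusted p = 0.0165), from probes above background on 4 R175Q arrays and 2 wild-type arrays. Plcb3, a phospholipase activated by G proteins, fell by 0.42 on the log2 scale (adjusted p = 0.000837) and Adrbk1, a receptor kinase, fell by 0.22 on the log2 scale (adjusted p = 0.0206). With the default background Plcb3 passed, while Rgs1 turned to -0.06 (adjusted p = 0.923) and Adrbk1 was at -0.12 (adjusted p = 0.594).

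Of 16 tested inducers and transcription factors of chemokine genes, 6 rose and 1 fell, where 9.66% of all genes tested rose and 9.76% fell. Tlr2, a receptor for microbial lipoproteins, rose by 1.00 ± 0.07 log2 (adjusted p = 1.02e-05). Nfkbia, an inhibitor and target of NF-kB, rose by 0.53 ± 0.06 log2 (adjusted p = 0.000319). Irf1 rose by 0.43 ± 0.06 log2 (adjusted p = 0.000501) and Irf7 by 0.76 ± 0.11 log2 (adjusted p = 0.00123), and both are transcription factors of the interferon response. Irf9 rose by 0.71 ± 0.11 log2 (adjusted p = 0.00171). Ifnb1, an interferon gene, rose by 0.82 ± 0.19 log2 (adjusted p = 0.0133) and was above background on 4 R175Q arrays and 3 wild-type arrays. The gene that fell was Ifng, also an interferon gene, at -0.41 ± 0.07 log2 (adjusted p = 0.00188) and above background on 2 R175Q arrays and 4 wild-type arrays. With the default background 4 of the 16 rose, namely Tlr2, Nfkbia, Irf1 and Irf9, where 2.64% of all genes rose. Irf7 was then at 0.17 (adjusted p = 0.726) and Ifnb1 at 0.52 (adjusted p = 0.286), and Ifng turned to 0.04 (adjusted p = 0.855). Tnf, Il1a and Il1b, which are strong inducers of Ccl2 and Cxcl1, were not above background on any array.

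Because leukocytes and stromal cells also make chemokines, markers of other cell types were read beside these results. The counts of each list stand against 9.66% of all genes tested that rose and 9.76% that fell. Epcam and Cdh1, which mark epithelium, were above background on all 8 arrays. Epcam was dim, at 122 to 173 Cy3 units above local background, whereas Cdh1 read 8576 to 18454. Of 9 epithelial markers tested 4 fell, namely Krt7, Ocln, Krt19 and Krt8, and the other 5 did not pass. With the default background Krt7 and Krt19 passed, while Ocln (-0.54, adjusted p = 0.316) and Krt8 (-0.21, adjusted p = 0.0624) did not. The summed Cy3 signal of that list, above local background and not normalized between arrays, was 295488 to 380099 in R175Q cells, against 359725 to 422463 in wild-type cells. Of 12 myeloid markers tested 1 fell, Mrc1, and the other 11 did not pass. Mrc1 was at -0.59 log2, and at -0.12 with the default background (adjusted p = 0.904). The summed signal of the myeloid list was 42724 to 52905 in R175Q cells, against 37890 to 50978 in wild-type cells. Most of it came from Cd14, which alone read 33037 to 41560 in R175Q cells, against 29800 to 38387 in wild-type cells. Ptprc, the pan-leukocyte marker, was above background on all 8 arrays but dim, at 62.5 to 101 units. Adgre1 was above background on 2 R175Q arrays and 4 wild-type arrays. Of 4 lymphocyte markers tested 0 passed, also at an unadjusted p under 0.05, with a summed signal of 607 to 712 in R175Q cells, against 592 to 683 in wild-type cells. Cd3e was above background on all 8 arrays but dim, at 95.7 to 114 units, and Cd3d was above background on 0 arrays of either group. Of the 10 lymphocyte markers, 3 were above background on all 8 arrays and 4 on none. Of 4 neutrophil markers tested 0 passed, while 1 was higher and 1 lower at an unadjusted p under 0.05, with sums of 30862 to 50939 in R175Q cells, against 30298 to 37113 in wild-type cells. Nearly all of these sums came from S100a8 (12591 to 28591 over the 8 arrays) and Csf3r (14795 to 22056), while Ly6g read 75.2 to 122.

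Of 7 tested fibroblast and pericyte markers 4 rose, where 9.66% of all genes tested rose. They were Pdgfrb, Col1a2, Dcn and Col3a1, and the other 3 did not pass. With the default background none of the 4 passed. Pdgfrb was then at 0.66 (adjusted p = 0.081) and Col1a2 at 0.09 (adjusted p = 0.899), and Dcn turned to -0.04 (adjusted p = 0.962) and Col3a1 to -0.28 (adjusted p = 0.776). The summed signal of the list was 2432 to 3013 in R175Q cells, against 1343 to 1621 in wild-type cells. Of 3 tested endothelial markers 1 rose, Vwf, with sums of 533 to 603 in R175Q cells, against 379 to 503 in wild-type cells. Vwf did not pass with the default background (0.23 log2, adjusted p = 0.462). Cdh5, a defining endothelial marker, was not above background on any array. The part of these markers in the chemokine differences was not tested.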

How the data were processed

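The labels group the 8 arrays into 4 R175Q and 4 wild-type samples of NMuMG-NT2197 cells. RNA (1 to 2.5 ng) was amplified in 2 rounds, per the labels' protocols. Mean spot intensity, median local background intensity and a log10 ratio (Cy5 over Cy3) were written by Agilent Feature Extraction 9.5.3.1, per the file headers. A deposited table of log2 ratios was used as an alternative. Its direction, Cy3 over Cy5, was judged against the scanner values, and its scaling and centring are not given in the sources used here.

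Background was corrected by normexp (offset 50), with mean and spread taken from each array's 153 negative control spots, then loess within arrays. Limma's default fit placed the Cy3 background at -690 to -0.369 units per array, where negative control medians were 13.1 to 22.7. Spots of a probe were averaged, 122 probes with unreliable spots left out, and probes kept if above background in Cy3 on 4 of 8 arrays. The brightest probe stood for a gene, giving 17458 genes. R175Q minus wild-type was tested with limma 3.58.1 (lmFit and eBayes, two-sided, R 4.3.3, statmod 1.5.0), Benjamini-Hochberg over all genes, threshold 0.05. The code was tested on simulated data. The number of arrays limits the precision.

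Slide 1 held R175Q replicate 1 alone, and the other 3 slides held both groups. The result of 1 receptor gene and of 1 cell type marker is not reported here. For names, 64 of 71 member probes matched the GRCm38.p6 RefSeq table. The members and lists were chosen with earlier results of these data known. Genes past the threshold are given with every array, other tested members with the difference, and the rest with array counts. Listed genes are given if past the threshold, up to 4 a list, except that all such inducers are named. The closing section gives the effect of 28 alternatives, among them other background corrections, normalizations, filters, blocks and each array left out.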

Additional observations from a re-analysis of the deposited data

Results flagged for a closer look

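Each group of 4 arrays was checked for 1 array far from the other 3, for every chemokine or receptor gene that could be tested. Of 54 such groups 1 was marked, where chance marks about 1 in 20. Cxcl9 in wild-type replicate 2 had a log2 ratio of 0.64, against 0.36 to 0.40 in the other wild-type arrays. Cxcl9 was near background, above it on 3 R175Q arrays and 2 wild-type arrays.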

How the results depend on the processing

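With the negative control background 11 of the 27 genes rose and 1 fell. With the default normexp background 6 rose and 0 fell (8 and 2 at an unadjusted p under 0.05), and over all genes 461 rose and 411 fell, against 1687 and 1704 (3210 and 5449 at an unadjusted p under 0.05). With the default background and a fixed slide block together, 0 rose and 0 fell (limma; 8 and 1 at an unadjusted p under 0.05), while 3 of all 17458 genes rose and 3 fell (2180 at an unadjusted p under 0.05). In the other alternatives 9 to 12 genes rose, 9 of them with a fixed slide block and 9 with the deposited table. The number that fell was 2 with the scanner's processed ratio, the Cy3 channel alone, scaling between arrays, the filter on all 8 arrays, the trend and robust fit, the replicate block, slide as a random block and scan day as a block, and 4 with arrayWeights, where 3168 and 3638 of all genes passed. Leaving out each array in turn gave 9 to 11 genes that rose and 1 to 2 that fell. The count of 9 was without wild-type replicate 2, which was the lowest wild-type array for 7 of the 11 genes, and the count of 2 was without wild-type replicate 3. Ccl17 turned to -0.38 with the default background and -0.46 with that background and a slide block, and Ccl3 to -0.33 and -0.37. The cause was not tested. Ccl5, Ccl7, Ccl8, Cxcl10, Cxcl16 and Cxcr7 passed in 27 of 28 alternatives, the exception being slide block and default background together. Quantile normalization of brightness leaves the ratios as they are. Same-numbered arrays correlated at 0.32, 0.02, 0.56 and 0.11 in their deviations from the group means, and R175Q replicates 2 and 4 correlated best with another number, so the numbers were not taken to pair the samples. With the replicate block 12 genes rose and 2 fell.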
